A study of Homo sapiens with 6 samples.

Results

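A fixed set of 48 genes of DNA replication and mitosis was followed in INA-6 cells, an established line of malignant human plasma cells (multiple myeloma) that needs the cytokine interleukin-6 (IL-6) in its medium. Signals of the IL-6 receptor reach the nucleus mainly through the transcription factor STAT3. The arrays compared cells restimulated with IL-6 for 1 h, after a withdrawal of 13 h, with cells that had been without IL-6 for 13 h and received none. There were 3 restimulated and 3 withdrawn samples of total RNA, each hybridized to its own single-color custom array of 243504 spots (the nONCOchip). Both groups had thus passed through the same withdrawal. Cells kept in IL-6 throughout are not among these arrays, so what the withdrawal itself did to these genes was not analysed here. The labels call the samples biological replicates and do not say whether they were separate cultures, so p-values measure the spread between these samples only.

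The 48 genes were taken by symbol from a named list, and each was represented by its brightest probe over the 6 arrays. All 48 were found, with 57 probes in total, among 17411 genes that carry a symbol, of which 12703 were bright enough to be tested. Gene names rest on an inferred match between probe numbers and rows of the value table, since the files do not state one. Under it, levels of different probes for the same gene correlated across 7146 pairs (r = 0.432), against 0.0174 when equal numbers were matched, and all 48 genes lay above the array median rather than 27. By role, 21 act in replication, 24 in mitosis, and 3 are transcription factors that drive these programs. Values are log2 intensities on arrays that the authors had quantile normalized, and a difference is always the restimulated mean minus the withdrawn mean. It is relative to the average spot of the array. The deposited distributions were not identical. Array medians were between 6.84 and 6.85, while sorted values at the same rank differed by up to 0.20 between arrays. RNA was taken from whole cultures, so a change in the share of cycling cells and a change of RNA within each cycling cell cannot be told apart.

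As background, a dividing cell switches these genes on in waves. In late G1 the E2F factors turn on genes for licensing origins, unwinding DNA and making nucleotides, and S phase follows. In G2 and M a second wave, bound by the MuvB complex with B-MYB and FOXM1, supplies mitotic cyclins, spindle motors, kinetochore proteins and the checkpoint. The sum of these genes is widely read as a measure of proliferation, which is a hallmark of aggressive myeloma. Restimulated cells had received the growth factor 1 h earlier, a time at which direct STAT3 targets are already transcribed.

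Promoters are given because the factors of the 2 waves, and STAT3, are known to bind different short sequences, and the letters below are a description with no test. In the 250 bases before each RefSeq start (GRCh38.p14), the E2F motif was searched as TTTGGCGC, TTTCCCGC, TTTCGCGC or TTTGCCGC, the cell cycle homology region (CHR) as TTTGAA or TTCGAA, the CCAAT box as CCAAT, and the STAT motif as TTCNNNGAA, on both strands. Promoters were available for 41 of the 48 genes. An E2F motif lay in 9 of 19 replication genes and 2 of 20 mitosis genes, against 3.40% of all 27305 genes with a promoter. A CHR motif lay in 2 of 19 replication genes and 10 of 20 mitosis genes, against 17.2% of all genes, and a CCAAT box in 12 of 19 and 18 of 20, against 37.0%. Over single promoters, of which some genes have several, the background shares were 2.79% for E2F, 14.3% for CHR and 32.0% for the CCAAT box.

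Promoters of 4 genes of the set are shown, with E2F letters in capitals in MCM6 and TYMS, and CHR and CCAAT letters in capitals in CCNB2 and KIF11. They are followed by a promoter of BCL6, a gene that rose with IL-6, with its STAT letters in capitals. The other BCL6 promoter examined, at chr3:187736502-187736751 (minus strand), held no STAT letters and is not printed. In MCM6 the E2F letters of both strands overlap, which makes 2 longer runs. They lie at chr2:135876444-135876693 (minus strand), chr18:657403-657652 (plus strand), chr15:59104896-59105145 (plus strand), chr10:92592880-92593129 (plus strand) and chr3:187745469-187745718 (minus strand), in the order given.
MCM6: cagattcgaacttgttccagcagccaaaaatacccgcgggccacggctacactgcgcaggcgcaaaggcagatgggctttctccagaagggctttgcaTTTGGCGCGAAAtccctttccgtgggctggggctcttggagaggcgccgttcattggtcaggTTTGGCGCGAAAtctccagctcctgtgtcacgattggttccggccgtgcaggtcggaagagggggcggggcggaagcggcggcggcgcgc
TYMS: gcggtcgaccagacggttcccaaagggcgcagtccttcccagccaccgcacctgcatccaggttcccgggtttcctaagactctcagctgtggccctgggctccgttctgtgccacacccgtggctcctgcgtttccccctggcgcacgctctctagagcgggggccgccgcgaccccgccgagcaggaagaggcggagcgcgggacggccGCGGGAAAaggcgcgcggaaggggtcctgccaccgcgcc
CCNB2: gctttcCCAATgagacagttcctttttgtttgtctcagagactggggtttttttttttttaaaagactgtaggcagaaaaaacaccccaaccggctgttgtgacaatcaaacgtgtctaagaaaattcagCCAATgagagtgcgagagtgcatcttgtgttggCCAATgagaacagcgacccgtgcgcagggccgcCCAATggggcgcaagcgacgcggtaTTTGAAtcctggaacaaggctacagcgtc
KIF11: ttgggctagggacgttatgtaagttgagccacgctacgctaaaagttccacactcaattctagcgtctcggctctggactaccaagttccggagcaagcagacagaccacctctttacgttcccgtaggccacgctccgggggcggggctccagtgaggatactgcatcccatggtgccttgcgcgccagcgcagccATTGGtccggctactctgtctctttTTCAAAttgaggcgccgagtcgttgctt
BCL6: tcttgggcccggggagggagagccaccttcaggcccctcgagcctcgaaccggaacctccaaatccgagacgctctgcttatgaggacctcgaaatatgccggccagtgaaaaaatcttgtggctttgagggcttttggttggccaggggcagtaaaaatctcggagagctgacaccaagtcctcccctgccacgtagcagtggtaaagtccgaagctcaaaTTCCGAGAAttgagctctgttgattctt

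In CCNB2 and KIF11 the CHR begins 29 and 28 bases before the start, with CCAAT boxes upstream of it. The STAT letters were found in 3 of the 41 genes (RFC2, PTTG1 and KIF20A), a share of 7.32% against 8.09% of all genes. Over single promoters the share was 6.57%. A match is a description of letters in this window and not evidence of a bound site.

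None of the 48 genes passed the test after 1 h of IL-6. The limma test over 12703 genes called 0 of the 48 at an adjusted p of 0.05, while it called 31 of all tested genes, or 0.244%. At an unadjusted p below 0.05 there were 4 of the 48 (TYMS, AURKA and KIF11 higher, CENPA lower), or 8.33%, against 7.99% of all tested genes. With a background this low, a count of 0 among 48 genes is near what the array shows in general. The sizes say more. The log2 differences ran between -0.20 (POLA1) and 0.30 (AURKA), which are 0.868-fold and 1.23-fold, and their median was 0.042, against 0.0080 over all tested genes. The difference was above 0 in 31 of the 48 genes (64.6%), against 52.1% of all tested genes.

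The intervals say how large a difference of measured intensity these arrays would still allow in each gene, taken singly and read by its used probe. They were not adjusted for the number of genes. For every one of the 48 genes the 95% interval of the limma difference lay wholly between -1 and 1, as it did for 98.0% of all tested genes. That is within a 2-fold difference of intensity either way. Background was not measured, so in dim genes a difference of intensity can understate a change of RNA. CDC25C, on its lowest array, stood only 0.64 above the array median, so its interval does not bound a loss of its RNA. The widest upward bound was 0.71 (BUB1B, 1.64-fold) and the widest downward bound -0.57 (E2F2, 0.675-fold). The standard errors ran between 0.058 and 0.20 with a median of 0.11, equal to the median of 0.11 over all tested genes.

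On the same arrays SOCS3, the feedback inhibitor of the IL-6 receptor, read 11.54, 11.46 and 11.79 in restimulated cells, against 7.73, 7.54 and 7.91 in withdrawn cells. Its difference of 3.87 ± 0.13 (SE, limma adjusted p = 0.000634) is a 14.7-fold rise. BHLHE40, a helix-loop-helix repressor, differed by 2.00 ± 0.071 and the kinase PIM2 by 1.81 ± 0.071 (SE, n = 3 per group). BCL6, a repressor of B cell differentiation, averaged 8.33 in restimulated cells and 6.48 in withdrawn cells, where all 3 arrays had it below their median. All 3 restimulated values lay above all 3 withdrawn values in each of these genes, which is the direction the treatment labels call for. The genes were chosen with earlier results of these data known, so this is no independent check of the labels. The largest interval bound among the 48 genes, 0.71, lies below the 1.81 of PIM2, and BCL6 gets no fold because its withdrawn level is only a bound.

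**Figure D1:**
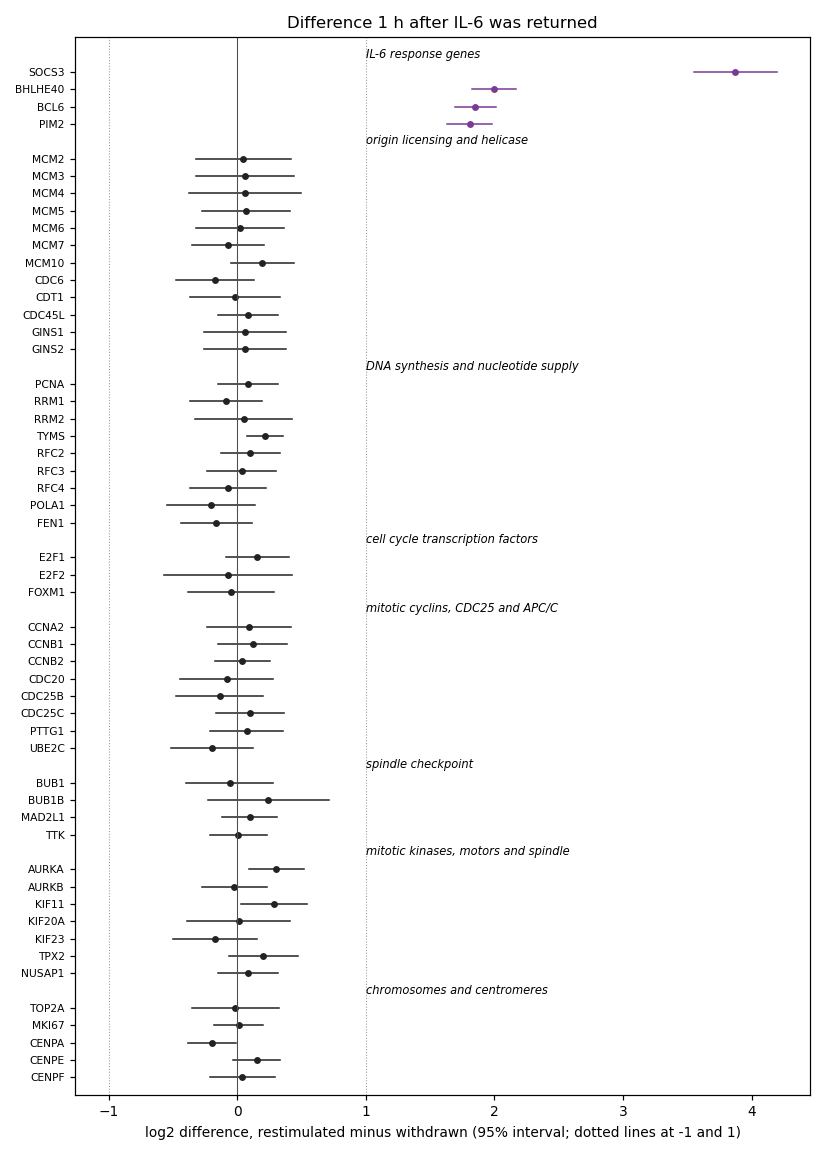
Log2 difference of restimulated minus withdrawn cells for 4 IL-6 response genes (purple) and the 48 replication and mitosis genes (black), grouped by role; points are limma estimates and lines their 95% intervals from 3 arrays per group. All 48 intervals lie between -1 and 1, and the points of the 4 response genes lie between 1.81 and 3.87.

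The level of background was not measured. All 48 genes lay above the array median on all 6 arrays. CDC25C, a phosphatase that activates CDK1, read 7.84, 7.78 and 7.78 in restimulated cells, against 7.48, 7.77 and 7.86 in withdrawn cells, while array medians were between 6.84 and 6.85. Its 7.48 was the lowest single reading of the set, and the highest was 13.37, well under the ceiling of 16. Intensities of different probes are not comparable as amounts of RNA.

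**Figure D2:**
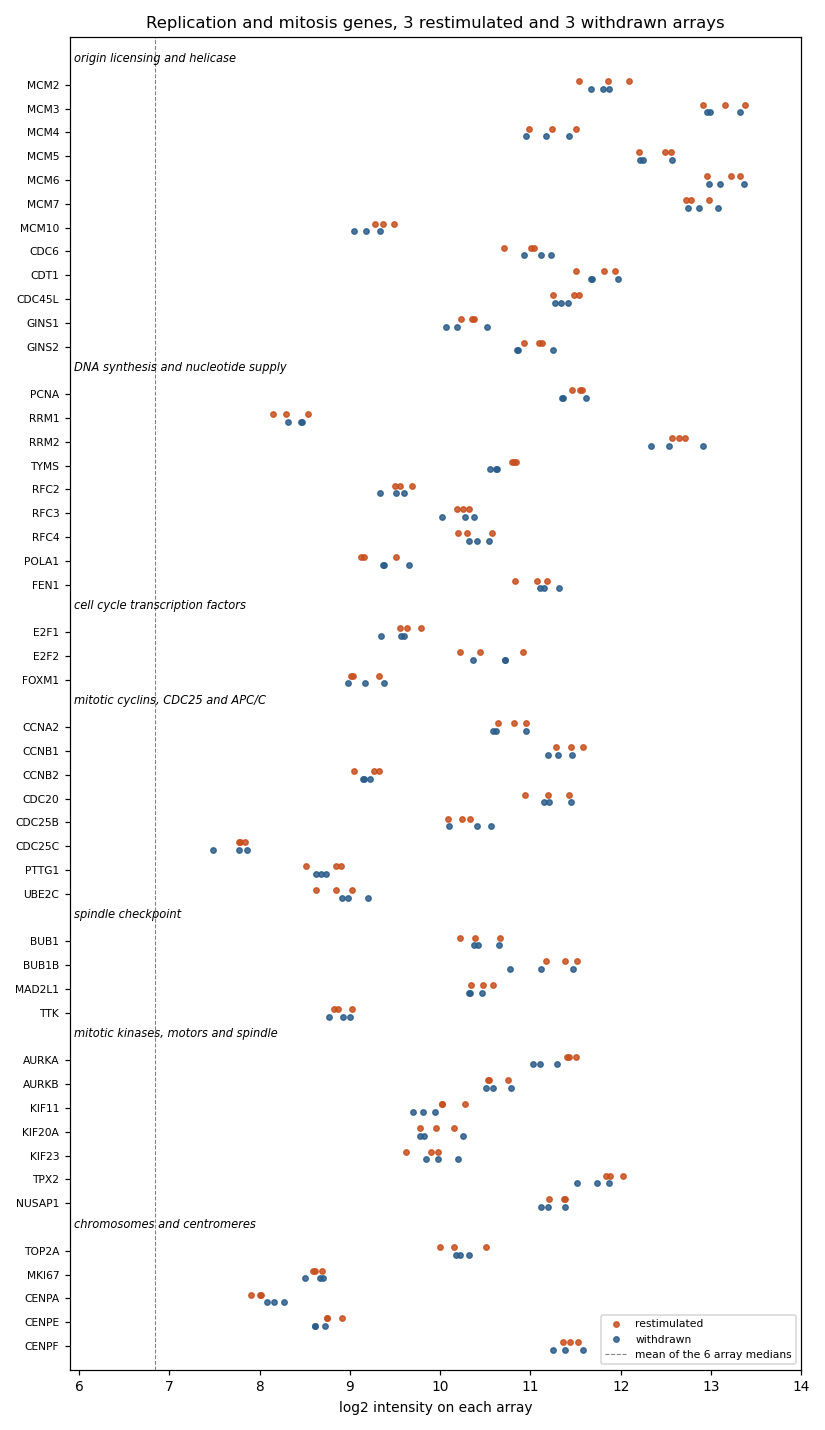
Log2 intensity of the brightest probe of each of the 48 genes on 3 restimulated arrays (orange) and 3 withdrawn arrays (blue), grouped by role; the dashed line is the mean of the 6 array medians. Values of the 2 groups overlap in 43 of the 48 genes, and all points lie to the right of the dashed line.

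Origin licensing and unwinding came first in the order of roles. MCM2 to MCM7 form the ring-shaped helicase that is loaded at origins in G1. The 6 genes differed by between -0.073 (MCM7) and 0.068 (MCM5), and their 95% intervals together spanned -0.37 to 0.49. MCM2 read 11.53, 12.09 and 11.85 in restimulated cells, against 11.67, 11.86 and 11.81 in withdrawn cells, a difference of 0.045 ± 0.15 (SE, adjusted p = 0.964). The withdrawn values all fell inside the restimulated range.

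CDC6 and CDT1 load the ring onto DNA. CDC6 read 10.71, 11.00 and 11.04 in restimulated cells, against 11.12, 11.23 and 10.93 in withdrawn cells. It differed by -0.18 ± 0.12 (SE, adjusted p = 0.793), and one withdrawn array fell among the restimulated ones. CDT1 differed by -0.018, and its second probe by 0.064. CDC45L (now CDC45) and the GINS subunits activate the helicase. CDC45L read 11.25, 11.54 and 11.48 in restimulated cells, against 11.34, 11.42 and 11.27 in withdrawn cells, which overlap. It differed by 0.083 ± 0.096 (SE, adjusted p = 0.879), while GINS1 and GINS2 differed by 0.060 and 0.062.

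MCM10, which joins the helicase as replication starts, had the smallest p of these 12 genes. It read 9.36, 9.28 and 9.49 in restimulated cells, against 9.04, 9.18 and 9.33 in withdrawn cells, and differed by 0.19 ± 0.099 (SE, adjusted p = 0.718). Only the highest withdrawn array entered the restimulated range. Its second probe differed by 0.072.

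Among the 9 genes of DNA synthesis and nucleotide supply, TYMS had the smallest standard error. TYMS makes thymidylate, the DNA-specific nucleotide, and is the target of fluorouracil. It read 10.80, 10.82 and 10.84 in restimulated cells, against 10.63, 10.62 and 10.55 in withdrawn cells. The groups did not overlap, and the difference of 0.22 ± 0.058 (SE) had the smallest p of the 48 genes but did not pass over all genes (limma adjusted p = 0.448). The fold was 1.16 with a 95% interval of 1.05 to 1.28. 

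PCNA, the sliding clamp that holds DNA polymerases, read 11.57, 11.46 and 11.55 in restimulated cells, against 11.35, 11.36 and 11.62 in withdrawn cells, and differed by 0.083 ± 0.094 (SE, adjusted p = 0.877). The highest of its 6 values was a withdrawn one. The clamp loader subunits RFC2, RFC3 and RFC4 differed by 0.10, 0.033 and -0.074. The ribonucleotide reductase subunits RRM1 and RRM2, which make deoxyribonucleotides, differed by -0.090 and 0.051.

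POLA1, the polymerase subunit that starts new strands, and FEN1, the nuclease that trims them, had negative differences. POLA1 read 9.15, 9.12 and 9.52 in restimulated cells, against 9.38, 9.65 and 9.37 in withdrawn cells, a difference of -0.20 ± 0.14 (SE, adjusted p = 0.782). FEN1 read 10.83, 11.07 and 11.18 in restimulated cells, against 11.15, 11.10 and 11.31 in withdrawn cells, a difference of -0.16 ± 0.11 (SE, adjusted p = 0.789). Both overlapped between groups, and the second probe of FEN1 went the other way, by 0.085.

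None of the 3 transcription factors passed the test. E2F1, an activator of the G1/S wave, read 9.63, 9.78 and 9.56 in restimulated cells, against 9.35, 9.59 and 9.57 in withdrawn cells, and differed by 0.16 ± 0.10 (SE, adjusted p = 0.767). E2F2, a close relative, read 10.22, 10.44 and 10.92, against 10.72, 10.72 and 10.36 in withdrawn cells. Its difference of -0.072 ± 0.20 (SE, adjusted p = 0.953) had the largest standard error of the set, and its second probe differed by 0.045. FOXM1, which drives the G2/M wave, read 9.02, 9.03 and 9.32 in restimulated cells, against 8.97, 9.17 and 9.38 in withdrawn cells, and differed by -0.050 ± 0.14 (SE, adjusted p = 0.952). In all 3 the groups overlapped.

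Of the 8 genes for mitotic cyclins, CDC25 phosphatases and the anaphase-promoting complex (APC/C), 5 had positive and 3 negative differences. CCNB1, cyclin B1, which activates CDK1 for entry into mitosis, read 11.28, 11.59 and 11.45 in restimulated cells, against 11.20, 11.46 and 11.31 in withdrawn cells. It differed by 0.12 ± 0.11 (SE, adjusted p = 0.837), with overlapping groups. CCNA2 and CCNB2, the cyclins A2 and B2, differed by 0.087 and 0.039. The second CCNB2 probe was below the array median on all arrays and was not tested.

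CDC20 activates the APC/C, UBE2C is its ubiquitin-conjugating enzyme, and PTTG1 (securin) is one of its substrates. UBE2C read 8.63, 9.02 and 8.85 in restimulated cells, against 8.98, 9.21 and 8.91 in withdrawn cells, and differed by -0.20 ± 0.13 (SE, adjusted p = 0.773). CDC20 differed by -0.083 and PTTG1 by 0.074. CDC25B, a CDK-activating phosphatase of G2, read 10.33, 10.08 and 10.24 in restimulated cells, against 10.41, 10.56 and 10.09 in withdrawn cells, and differed by -0.14 ± 0.14 (SE, adjusted p = 0.858). CDC25C differed by 0.098. Values of the 2 groups overlapped in each of the 8 genes.

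The spindle checkpoint delays anaphase until chromosomes are attached. BUB1B (BubR1) had the largest difference of its 4 genes and also a wide spread, with 11.38, 11.52 and 11.18 in restimulated cells, against 11.11, 10.77 and 11.47 in withdrawn cells. It differed by 0.24 ± 0.19 (SE, adjusted p = 0.818). The withdrawn arrays alone spanned more than this difference. MAD2L1 read 10.34, 10.58 and 10.48, against 10.32, 10.47 and 10.33 in withdrawn cells, and differed by 0.096 ± 0.087 (SE, adjusted p = 0.836). The kinase BUB1 read 10.38, 10.22 and 10.66, against 10.42, 10.65 and 10.38 in withdrawn cells, and differed by -0.061 ± 0.14 (SE, adjusted p = 0.941), and the kinase TTK (MPS1) differed by 0.0067.

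The kinases, motors and spindle factors held 2 of the 5 genes whose groups did not overlap. AURKA, the Aurora kinase of the spindle poles, had the largest difference of the 48 genes. It read 11.41, 11.50 and 11.43 in restimulated cells, against 11.03, 11.30 and 11.10 in withdrawn cells, and differed by 0.30 ± 0.088 (SE, limma adjusted p = 0.486). Its fold was 1.23 with a 95% interval of 1.06 to 1.43. TPX2, which activates Aurora A on the spindle, read 11.88, 11.83 and 12.02, against 11.74, 11.87 and 11.52 in withdrawn cells, and differed by 0.20 ± 0.11 (SE, adjusted p = 0.727), with overlap of one array.

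KIF11, the motor that pushes the spindle poles apart, read 10.02, 10.28 and 10.01 in restimulated cells, against 9.70, 9.95 and 9.80 in withdrawn cells, and differed by 0.29 ± 0.11 (SE, limma adjusted p = 0.580). The second KIF11 probe differed by 0.059. It read 9.53, 9.75 and 9.55 in restimulated cells, against 9.50, 9.67 and 9.49 in withdrawn cells, so its groups overlapped. The other kinesins, KIF20A and KIF23 of cytokinesis, differed by 0.012 and -0.17, AURKB of the chromosomal passenger complex by -0.023 and NUSAP1, a spindle microtubule bundler, by 0.084.

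Of the 5 genes of chromosomes and centromeres, CENPA and CENPE had non-overlapping groups, in opposite directions. CENPA, the histone variant that marks centromeres, read 7.90, 8.01 and 8.0 in restimulated cells, against 8.27, 8.16 and 8.08 in withdrawn cells, a difference of -0.20 ± 0.076 (SE, limma adjusted p = 0.609). CENPE, a kinetochore motor, read 8.75, 8.75 and 8.91 in restimulated cells, against 8.62, 8.72 and 8.61 in withdrawn cells, a difference of 0.15 ± 0.075 (SE, adjusted p = 0.712). Neither passed over all genes. CENPF, a protein of the outer kinetochore, read 11.36, 11.43 and 11.53, against 11.38, 11.25 and 11.58 in withdrawn cells, and differed by 0.038 ± 0.10 (SE, adjusted p = 0.952), while its second probe differed by -0.17.

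MKI67 and TOP2A, the 2 genes most used as proliferation markers, were the flattest of this role. MKI67, the antigen Ki-67, read 8.62, 8.59 and 8.70 in restimulated cells, against 8.67, 8.70 and 8.51 in withdrawn cells, and differed by 0.0094 ± 0.077 (SE, 95% interval -0.18 to 0.20, adjusted p = 0.991). TOP2A, the topoisomerase that untangles chromosomes, read 10.16, 10.51 and 10.00, against 10.22, 10.32 and 10.18 in withdrawn cells, and differed by -0.016 ± 0.14 (SE, 95% interval -0.36 to 0.33, adjusted p = 0.992).

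Non-overlap was no more common here than elsewhere. The 5 genes whose restimulated and withdrawn values did not overlap (TYMS, AURKA, KIF11, CENPA and CENPE) are 10.4% of the 48, and 12.2% of all tested genes had none. For 44 of the 48 genes the difference was smaller than the larger of the 2 ranges within a group, as for 92.0% of all tested genes. Of the 9 genes with a second probe, 8 had one that was tested. Their differences pointed the same way as those of the used probe in KIF11, MCM10, RFC3 and RRM2 (4 of the 8) and the other way in CDT1, CENPF, E2F2 and FEN1. The largest second-probe difference was 0.26 for RFC3 (limma adjusted p = 0.641 over all named probes tested), whose used probe differed by 0.033.

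The roles had medians close to 0, and differences between roles were not tested. The median log2 difference was 0.051 over the 21 replication genes and 0.038 over the 24 mitosis genes. These medians depended on single arrays. That of the 48 genes was -0.0074 without withdrawn replicate 1 and 0.094 without withdrawn replicate 2, and that of the replication genes was -0.054 without restimulated replicate 2 and 0.12 without withdrawn replicate 2. With all arrays the median was 0.059 for licensing and helicase, 0.033 for synthesis and nucleotides, and -0.050 for the 3 transcription factors. It was 0.057 for cyclins, CDC25 and APC/C, 0.051 for the checkpoint, 0.084 for kinases, motors and spindle, and 0.0094 for chromosomes and centromeres.

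Genes of licensing and the helicase, MCM2 to MCM7 among them, varied together between arrays of one group. For each array, the median deviation of a gene group from its own means over the 6 arrays was taken. For MCM2 to MCM7 it was -0.20, 0.21 and 0.045 on the restimulated arrays 1, 2 and 3, against -0.15, 0.21 and -0.086 on the withdrawn arrays 1, 2 and 3. Both arrays numbered 2 were high, and the restimulated array 1 was the lowest. Over all tested genes the same medians stayed between -0.031 and 0.045, and over the 24 mitosis genes between -0.082 and 0.082. The mitosis roles differed on restimulated and withdrawn replicate 2. There, cyclins, CDC25 and APC/C stood at 0.11 and 0.14, and the checkpoint at 0.14 and 0.072. Kinases, motors and spindle stood at 0.021 and 0.11, and chromosomes and centromeres at 0.012 and 0.068. High arrays numbered 2 were thus not confined to licensing genes. Over the 12 licensing and helicase genes the medians ran between -0.19 and 0.21, and over the 21 replication genes between -0.18 and 0.19. Both sets include MCM2 to MCM7, so these ranges cannot show how far the pattern reaches beyond them. The 9 genes of synthesis and nucleotide supply include none of them. Their medians were -0.054, -0.023 and 0.071 on restimulated arrays 1, 2 and 3, against -0.052, 0.064 and 0.0050 on withdrawn arrays. Replicate 2 was the highest restimulated array in 10 of the 12 licensing and helicase genes, and the highest withdrawn array in 11.

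MCM3, for example, read 12.91, 13.37 and 13.16 in restimulated cells, against 12.95, 13.32 and 12.99 in withdrawn cells. MCM4 read 10.98, 11.50 and 11.24, against 10.95, 11.43 and 11.17 in withdrawn cells. In all 6 MCM genes replicate 2 was the highest array of both groups, which was so for 18.8% of all tested genes. It held for 11 of the 21 replication genes, these 6 included, and 8 of the 24 mitosis genes. The further replication genes were CDT1, CDC45L, GINS1, GINS2 and RFC3. It did not hold for CDC6, MCM10 or the other genes of synthesis and nucleotide supply. Withdrawn replicate 2 was the highest withdrawn array in 15 of the 21 and 19 of the 24, against 47.5% of all tested genes. The labels do not say that equal numbers mark a shared culture or day, and the cause was not tested. The pattern was noticed after the values were seen. The median treatment difference of MCM2 to MCM7 was 0.052, smaller than the spread between arrays of either group.

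**Figure D3:**
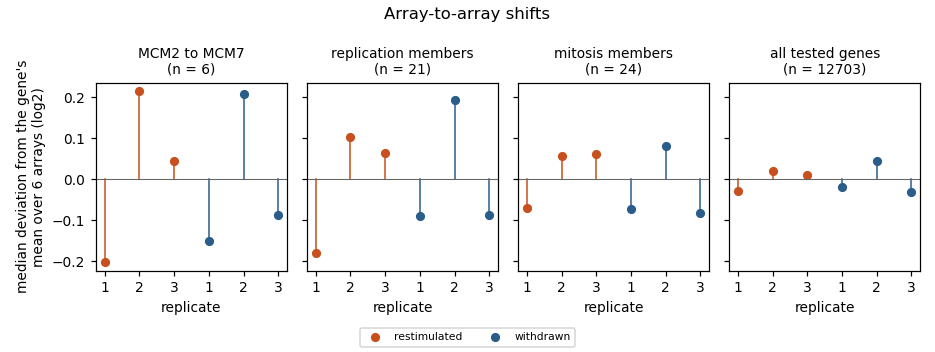
Median deviation of a gene group, in log2 units, from each gene's mean over the 6 arrays, for restimulated (orange) and withdrawn (blue) replicates 1 to 3. Both replicates numbered 2 stand at 0.21 for MCM2 to MCM7, while all tested genes stay between -0.031 and 0.045.

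Further genes of the same pathways, listed from general knowledge, were also tested. Of 39 further replication genes tested, none passed in either direction (limma, 2 at an unadjusted p below 0.05), with a median difference of 0.047. The smallest p had RNASEH2A, a subunit of a nuclease that removes RNA from DNA, which read 12.00, 12.09 and 12.14 in restimulated cells, against 12.41, 12.37 and 12.19 in withdrawn cells, a difference of -0.25 ± 0.085 (SE, adjusted p = 0.522). DNA2, a nuclease and helicase, differed by 0.26 ± 0.089 and CDC7, the kinase that fires origins, by 0.21 ± 0.10 (SE, limma adjusted p = 0.542 and 0.709).

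Of 54 further mitosis genes, all tested, none passed either (limma, 3 at an unadjusted p below 0.05), and the median difference was 0.036. NEK2, a centrosome kinase, read 8.88, 9.11 and 9.19 in restimulated cells, against 9.44, 9.42 and 9.48 in withdrawn cells, a difference of -0.39 ± 0.094 (SE, adjusted p = 0.401). LMNB1, lamin B1 of the nuclear envelope, differed by 0.38 ± 0.11 and CKS2, a CDK subunit, by 0.27 ± 0.11 (SE, limma adjusted p = 0.494 and 0.622). CKS2 read 6.84, 6.95 and 6.65 in withdrawn cells, near the array medians of 6.84 to 6.85. Its withdrawn level is therefore only a bound. Apart from CKS2, which gets no fold, all differences named for these lists were under 2-fold. The 95% intervals of the measured differences lay between -1 and 1 for all 39 and all 54 genes. Some of these genes also read near the array medians, where an interval says little about RNA. CENPK averaged 6.91 in both groups, and CEP55 averaged 7.03 in restimulated and 7.02 in withdrawn cells.

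The labelled cell type was checked by its markers. All 9 plasma cell and myeloma markers on the array (CD38, IRF4, JCHAIN, PRDM1, SDC1, SLAMF7, TNFRSF13B, TNFRSF17 and XBP1) lay above the array median on all arrays, and PRDM1 was the only one called. None of 6 fibroblast markers did so, including COL1A1 and PDGFRB. Other lists also had markers above it on all arrays, and none of these was called. They were 3 of 8 T and NK cell markers (CD2, CD3E and CD7) and 3 of 7 myeloid markers (CD14, CD68 and FCN1). A further 2 of 5 epithelial markers (KRT8 and KRT18) and 3 of 4 erythroid markers (ALAS2, HBA1 and HBB) also did so. Of all 17411 genes, 12703 had a probe above the median on at least 3 arrays, which is a looser mark than all arrays. The share above it on all arrays is not given here. A level above the median alone hardly identifies a cell type. The mean level of the plasma cell list, PRDM1 included, was 11.31 to 11.46 on restimulated arrays, against 11.10 to 11.15 on withdrawn arrays. That of the T and NK cell list was 7.41 to 7.53, against 7.55 to 7.74. The epithelial list stood higher than that, at 8.49 to 8.65, against 8.48 to 8.71. Myeloid markers averaged 7.31 to 7.44, against 7.37 to 7.56, and erythroid markers 7.18 to 7.38, against 7.31 to 7.56. The fibroblast list averaged 6.47 to 6.53, against 6.48 to 6.62. Such means of different probes are not amounts of RNA.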

How the data were processed

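INA-6 RNA from 3 restimulated and 3 withdrawn samples was measured on 6 single-color (Cy3) arrays. Per the paper's methods, the authors amplified total RNA with a random T7 primer, scanned the custom Agilent arrays with a GenePix scanner and quantile normalized them, and they deposited log2 intensities, 1 per spot and array. R 2.9.0 and limma appear in the processing notes of the submitters. A background correction is not stated in the methods or labels. Quantile normalization removes a shift of all spots between arrays. The number of arrays limits the precision.

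Groups came from the sample labels. Symbols were updated through a RefSeq gene table (GRCh38.p14). Probes entered the test when at least 3 arrays had them above the array median, and the brightest tested probe stood for its gene. Restimulated was compared with withdrawn with two-sided tests from the lmFit and eBayes functions of limma 3.58.1 (R 4.3.3), without a block, using Benjamini-Hochberg adjustment over 12703 genes and a threshold of 0.05. The fit was also run on simulated data with noise drawn independently for each gene, and no result here rests on it. On the real arrays some genes varied together. Alternatives changed the filter, probe choice, variance model, normalization, symbols, fitted spots, block and arrays.

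The 48 genes, the lists and the rules were chosen with earlier results of these data known. Values are given in full for the 3 genes with the smallest p in each role, those without overlap between groups, and MCM2, PCNA, E2F1, FOXM1, CCNB1, MKI67 and TOP2A. Further genes are those with the 3 smallest p of each list. Promoter sequences are RefSeq's.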

Additional observations from a re-analysis of the deposited data

How the results depend on the processing

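In all 16 alternatives, limma called 0 of the 48 genes and all 48 intervals stayed between -1 and 1. The lowest adjusted p of any of the 48 genes under any alternative was 0.152. At an unadjusted limma p below 0.05 there were 4 of the 48 in the main fit and 2 to 5 in the alternatives. The unadjusted limma p of TYMS was 0.0093 in the main fit. It was 0.056 with an intensity trend and robust prior and 0.0503 without probes at the ceiling, where 2 of the 48 stayed below 0.05. The median difference of the 48 genes was 0.025 after quantile normalization over the tested genes and 0.046 with arrays centered on the median. Leaving out 1 array gave -0.0074 to 0.094. The medians of the replication and mitosis genes then ran between -0.054 and 0.12 and between 0.017 and 0.077. The number of all tested genes called was 31, and it was 78 with an intensity trend and robust prior, 58 without probes at the ceiling, 55 with centered arrays, 61 in a fit over all tested spots and 6 to 15 without 1 array.

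With the replicate block, 0 of the 48 genes and 1 of all tested genes was called. The median of the 48 genes was 0.042, as without it, since this block leaves every difference unchanged. Deviations of samples with the same number correlated with r = 0.047, -0.023 and -0.28 over all tested genes, and the labels do not say what equal numbers share. The block changed no call among the 48 genes.

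Alternatives of filter, variance model, block, symbols, fitted spots and ceiling probes left the differences of the 25 genes given in full unchanged. A sign could change only with 1 array left out, a mean over probes or another normalization. Of the 25 genes, 18 kept their sign in every alternative, and 7 changed it when 1 array was left out. Their ranges without 1 array were -0.15 to 0.052 for FOXM1, -0.27 to 0.081 for E2F2, -0.18 to 0.042 for BUB1, -0.040 to 0.13 for CENPF, -0.088 to 0.19 for MCM2, -0.050 to 0.046 for MKI67 and -0.16 to 0.096 for TOP2A. CENPF was also -0.064 with the mean over its probes. The cause was not tested. Spots under the array median and at the ceiling hold little information on differences. In 44 of the 48 genes the difference was smaller than the larger range within a group.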
